A study of Mus musculus with 15 samples.

Results

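RNA was sequenced from A20, a B-cell lymphoma line of BALB/c mice, in its parental form and as 4 CRISPR/Cas9 clones. Clones E6.1 and E6.2 carried a mutation in exon 6 of *Foxp1*, and clones E7.1 and E7.2 carried a mutation in exon 7 of the same gene. The comparison described here is E7.1 against E6.2, which used 6 of the 15 libraries, with 3 libraries per clone from separate passages of the clone, so p-values measure the spread between passages and not between clones. These were the clones whose mean profiles lay farthest apart, with a root mean square difference of 0.788 log2 units, against 0.439 to 0.653 for the other pairs of lines, so the size of the difference was known when the pair was chosen. All genes that passed a filter on low counts were compared, 13904 of the 41388 genes counted. Each line is 1 clone grown from a single sorted cell, so the targeted exon and the clone cannot be told apart in this pair, and differences that existed between single A20 cells before editing are part of every value.

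Foxp1 is a forkhead transcription factor that mainly represses its target genes. In B cells it is needed for early development, and shorter isoforms made from internal promoters accompany the activated type of diffuse large B-cell lymphoma. In that lymphoma Foxp1 is known to lower expression of MHC class II, the molecules that present antigen to helper T cells, and A20 cells are a common model of a mature B cell that presents antigen.

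Levels are given as CPM, the count of a gene scaled to a fixed library total, after TMM normalisation, which scales each library for depth and composition, in the order of replicates 1 to 3. A gene was called when its adjusted p, from the quasi-likelihood test of edgeR with Benjamini-Hochberg adjustment over all 13904 genes, was under 0.05. The SE given with a log2 fold change is its absolute value divided by the square root of the F statistic of that test. It is thus derived from the test and is no separate measure of spread. Total counts were 26328054 to 39181530 per library. The libraries of E6.2 varied most among themselves. Their root mean square deviation from the mean of the clone was 0.604, 0.422 and 0.665 log2 units, against 0.251 to 0.371 in E7.1. E6.2 replicate 1 stood apart through features that collect ribosomal RNA, which held 16.3% of its counts, against 0.236% to 0.529% in E7.1 and 0.500% and 0.845% in the other E6.2 libraries.

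The targeted gene was lower in E7.1. *Foxp1* (ENSMUSG00000030067, chr6:98925338-99522721 of mm10, minus strand) was at 109, 104 and 105 CPM in E6.2 and at 41.7, 64.2 and 64.3 CPM in E7.1, so the libraries did not overlap. The log2 fold change was -0.90 (SE 0.20, adjusted p = 0.012), but without E7.1 replicate 1 the adjusted p was 0.0589. Parental cells held 102, 166 and 147 CPM, E6.1 held 103, 99.5 and 109 CPM, and E7.2 held 37.1, 39.6 and 52.3 CPM. Against the parental line the *Foxp1* transcript was lower in E7.1 (log2 fold change -1.29, adjusted p = 0.00688) and was not called in E6.2 (-0.39, adjusted p = 0.417). A count over the whole gene does not show whether a transcript carries a frameshift, so it checks the labels only in part.

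Of the genes tested, 2346 (16.9%) were called, 1143 higher in E7.1 (8.22%) and 1203 lower (8.65%). A fit of only the 6 libraries compared called 813, of which 481 were higher and 332 lower. The median log2 fold change over all genes was -0.07. Among the called genes, 1138 differed by at least 1 log2 unit, 474 higher and 664 lower, and 165 differed by at least 3. For 2237 of the called genes the 3 libraries of one clone all lay above the 3 of the other, against 31.8% of all genes tested. The number of calls rested on single libraries, being 540 without E7.1 replicate 1, 1011 without E7.1 replicate 3, 1362 without E7.1 replicate 2, 1348 without E6.2 replicate 1 and 3683 without E6.2 replicate 3. A total of 465 genes (284 higher and 181 lower) were called in all 6 fits that left out 1 library. Unless another value is given, each called gene named below was among these 465.

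**Figure D1:**
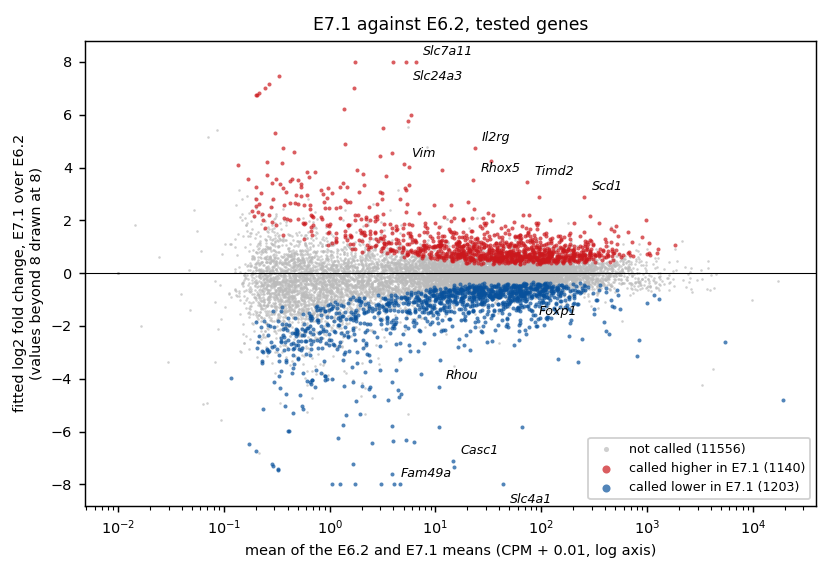
Fitted log2 fold change of E7.1 over E6.2 (vertical axis, values beyond 8 drawn at 8) against the mean of both clone means in CPM plus 0.01 (log axis) for 13899 of the 13904 tested genes, with 1140 genes called higher in red, 1203 called lower in blue and the rest in grey. For genes without a count in all libraries of one clone, such as *Slc7a11* and *Fam49a* at the edges, the fitted value depends on the prior count.

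The genes that stood highest in E7.1 by test were led by *Il2rg*, which encodes the gamma chain shared by several interleukin receptors. *Il2rg* (chrX:101264378-101268255, minus strand) was at 1.02, 2.63 and 1.44 CPM in E6.2 and at 48.3, 48.4 and 39.4 CPM in E7.1, a log2 fold change of 4.72 (SE 0.29, adjusted p = 6.43e-07). Every E7.1 library was also above the 9.29 to 11.1 CPM of parental cells, and every E6.2 library was below them. *Rhox5*, an X-linked homeobox gene of the reproductive tract, was at 2.87, 4.38 and 3.55 CPM in E6.2 against 50.6, 40.7 and 34.7 CPM in E7.1 (3.54, SE 0.22, adjusted p = 6.43e-07). The parental libraries held 39.9 to 47.8 CPM of *Rhox5*, so here E6.2 stood away from the parental level and E7.1 did not.

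*Timd2*, a cell surface receptor of the TIM family that binds ferritin, was at 7.83, 11.6 and 17.1 CPM in E6.2 and at 100, 157 and 143 CPM in E7.1 (3.45, SE 0.26, adjusted p = 3.32e-06), with 159 to 204 CPM in parental cells, so E7.1 was also below the parental libraries. *Sumf2*, a sulfatase-modifying factor of the endoplasmic reticulum, was at 0.276, 0.212 and 0.0601 CPM against 8.60, 13.1 and 12.6 CPM (5.99, SE 0.44, adjusted p = 3.25e-06). *Nlrc4*, an inflammasome adaptor, was at 0.472, 0.242 and 0.0902 CPM against 6.05, 5.67 and 5.46 CPM (4.45, SE 0.43, adjusted p = 4.2e-05). Both were near the parental range in E7.1, which was 10.8 to 17.1 CPM for *Sumf2* and 4.98 to 9.01 CPM for *Nlrc4*. *Vim*, which encodes the intermediate filament vimentin, was at 0.472, 0.454 and 0.692 CPM in E6.2, at 9.72, 9.27 and 9.37 CPM in E7.1 and at 4.19 to 5.44 CPM in parental cells (4.12, SE 0.47, adjusted p = 0.000211). Also among the strongest calls were *Psrc1*, a spindle microtubule protein (3.35), the uncharacterised *A230056P14Rik* (2.60), *Rps6kl1*, a kinase-like gene (2.52), *Iqcg*, a calmodulin-binding protein of cilia (2.14), *Nav2*, a cytoskeletal navigator protein (5.5), *Stom*, the membrane protein stomatin (4.55), and the antisense transcript *Kank4os* (5.78). *Stc1*, the secreted hormone stanniocalcin, lost its call (4.88, adjusted p = 0.0164) without E7.1 replicate 1 (adjusted p = 0.0684). Since counting ignored strand, *Kank4os* cannot be told apart from reads of its sense partner.

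Some of these genes had no reads at all in E6.2. *Slc7a11*, the cystine and glutamate antiporter that feeds glutathione synthesis, had 0 counts in each E6.2 library and 6.05, 16.4 and 16.6 CPM in E7.1. Set against the floor of 3 counts per library, 0.0996 CPM on average in E6.2, it was at least 130-fold higher in E7.1 (adjusted p = 0.000359), and parental cells held 16.4, 40.7 and 31.8 CPM. *Slc24a3*, a sodium, potassium and calcium exchanger, was likewise at 0 in E6.2 and at 9.21, 10.8 and 11.3 CPM in E7.1, at least 105-fold higher (adjusted p = 0.000117). *Adgrl2*, an adhesion G protein-coupled receptor of the latrophilin family, was at least 79.9-fold higher (9.83, 7.15 and 6.89 CPM in E7.1, adjusted p = 3.25e-06). *Atp6ap1l*, related to an accessory protein of the vacuolar proton pump, was at least 34.6-fold higher (3.40, 3.91 and 3.04 CPM, adjusted p = 4.38e-06). All 4 genes had reads in the parental line, E6.1 and E7.2, so their loss was seen in E6.2 alone of the 5 lines. *Bpifb4* and *Pla2g5*, a secreted phospholipase, had 2 and 3 counts over the E6.2 libraries against 371 and 297 in E7.1. Per unit of depth the ratios were 155 (95% exact interval 42.5 to 1282) and 82.5 (28.0 to 403), where the interval covers counting error only.

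Among the genes lower in E7.1, *Fam49a*, whose protein binds the small GTPase Rac, had 0 counts in each E7.1 library. It was at 6.02, 8.86 and 9.32 CPM in E6.2, at least 98.2-fold higher than the E7.1 floor of 0.0821 CPM (adjusted p = 2.4e-07), and at 6.71, 6.49 and 7.72 CPM in parental cells. *Taf9b*, a subunit of the general transcription factor TFIID, was at 16.3, 15.4 and 5.65 CPM in E6.2, at 0.214, 0.0766 and 0.149 CPM in E7.1 and at 4.84 to 8.89 CPM in parental cells (-6.38, SE 0.49, adjusted p = 4.11e-06). For both genes all E7.1 libraries were below the parental range, and some E6.2 libraries were above it. *Cfap126*, a protein of motile cilia, was also at 0 in E7.1 and at 3.54, 1.94 and 1.95 CPM in E6.2, at least 30.2-fold higher (adjusted p = 4.73e-06), with 1.27 to 2.07 CPM in parental cells. *Zfp941*, a zinc finger gene, and *Jhy*, needed for motile cilia, were lower by the same pattern (-6.42 and -5.81, adjusted p = 9.76e-05 and 7.79e-05).

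For *Slc4a1* and *Mmrn1* E6.2 was higher than any library of the other 4 lines. The other genes of this paragraph are set against E7.1, and against parental cells where a value is given. *Slc4a1*, the band 3 anion exchanger of red blood cells, was at 59.3, 83.0 and 116 CPM in E6.2 and at no more than 0.192 CPM in any library of the other 4 lines. In E7.1 it had 4 counts in all against 8115 in E6.2, a ratio of 2433 per unit of depth (95% exact interval 950.0 to 8933, adjusted p = 4.39e-07). *Casc1*, an axonemal dynein accessory protein, was at 34.5, 23.2 and 30 CPM in E6.2 and at 0.402, 0.153 and 0.0597 CPM in E7.1 (-7.12, SE 0.46, adjusted p = 8.14e-07), with 0.240 to 0.378 CPM in parental cells. *Rhou*, an atypical small GTPase, was at 16.9, 18.4 and 25.9 CPM against 0.509, 1.43 and 1.16 CPM (-4.30, SE 0.32, adjusted p = 3.32e-06), with 2.54 to 3.02 CPM in parental cells. *Mmrn1*, the platelet and endothelial protein multimerin, was at 14.3, 10 and 3.13 CPM in E6.2 and had 2 counts in all in E7.1, a ratio of 479 (132 to 3958). No other line held more than 0.0302 CPM of *Mmrn1*. Further members of the strongest calls were *Cryzl1*, a quinone oxidoreductase-like gene that was abundant in both clones (156, 201 and 168 CPM against 42.5, 62.9 and 62.2 CPM, log2 fold change -1.65, adjusted p = 0.000218), *9330111N05Rik* (-4.44) and *Fam78a* (-2.98). *Gm15128*, *Gm15991* and *Dhh*, the ligand Desert hedgehog, were at 0 in E7.1 and at least 73.5, 42.2 and 25.3 times higher in E6.2. *Map1b*, a microtubule-associated protein, had 2 counts in E7.1 against 280 (ratio 168, interval 46.1 to 1393). The paper names *Map1b* among the genes closest in sequence to its exon 6 guide and reports unaltered transcript levels for them. Its comparisons were of each clone with parental cells, and a link of *Map1b* to the guide was not tested here. *Npr2*, a natriuretic peptide receptor, was carried by E6.2 replicate 3 (1.61, 0.544 and 20.8 CPM), and its adjusted p of 0.0402 rose to 0.13 without that library and was over the threshold in 5 of the 6 fits without 1 library.

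**Figure D2:**
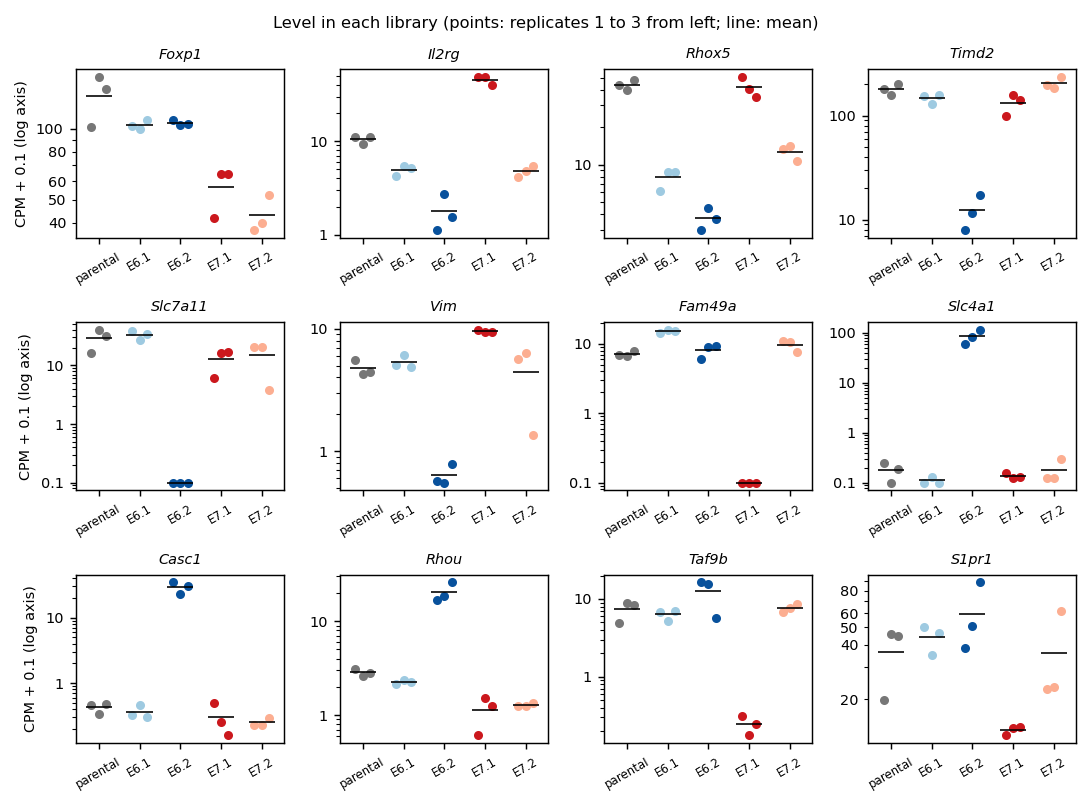
CPM plus 0.1 (log axis) of 12 genes in each of the 15 libraries, with the 3 replicates of a line side by side and a line at their mean. *Foxp1* is lowest in both exon 7 clones, *Slc7a11*, *Timd2* and *Vim* drop in E6.2, *Fam49a* and *Taf9b* drop in E7.1, and *Slc4a1*, *Casc1* and *Rhou* stand high in E6.2.

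Over all called genes the parental mean lay between both clone means for 2063 of 2346, that is 977 of the 1143 higher and 1086 of the 1203 lower. The share over all tested genes was not taken. Called genes were selected for a wide gap in the pair of lines farthest apart, so a parental mean inside that gap is partly built in. The count therefore does not show that the clones moved to opposite sides of the parental level. Of the genes higher in E7.1, 111 were called in E6.2 against parental and 45 in E7.1 against parental. Of those lower in E7.1 the counts were 20 and 79. For 2096 genes neither clone was called against the parental line. These comparisons share libraries with each other and are set side by side only. With at least 1 CPM in the other clone, 6 genes had no library over 3 counts in E6.2 and 15 genes had none over 3 counts in E7.1. Of the 6 genes, 5 were that low in E6.2 alone of the lines. Of the 15 genes, 6 were that low in E7.1 alone. The others were shared with further lines, with 7 of the 15 that low in E6.1, 7 in E7.2 and 2 in parental cells. Of these 15, *Adgrv1* and *Rhod* are named here after their values were seen. *Rhod*, a small GTPase of endosomes, had 5 counts in E7.1 against 250 in E6.2 (ratio 60, interval 25.4 to 186). *Adgrv1*, a large adhesion receptor, had 7 counts against 111 (19.0, interval 8.93 to 48.4).

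B-cell markers were abundant in both clones. In RNA from whole cultures, fewer cells of a type and less RNA per cell cannot be told apart. Summed over 10 markers, the level was 6253 to 6731 CPM in E6.2 and 6713 to 7399 CPM in E7.1. *Cd79a*, a signalling chain of the B-cell receptor, was at 54.6, 51.6 and 85.3 CPM in E6.2 and at 157, 127 and 121 CPM in E7.1 (1.09, SE 0.25, adjusted p = 0.0137). *Ms4a1*, which encodes CD20, was at 273, 386 and 391 CPM against 710, 510 and 574 CPM (0.77, SE 0.18, adjusted p = 0.0151). The adaptor *Blnk* was lower, at 206, 219 and 284 CPM against 105, 141 and 131 CPM (-0.91, SE 0.22, adjusted p = 0.016). None of these 3 was called without E7.1 replicate 1, when the adjusted p was 0.0636 for *Cd79a*, 0.073 for *Ms4a1* and 0.0805 for *Blnk*. The other 7 markers were not called. The log2 fold change was 0.40 for *Cd79b*, -0.49 for *Cd22*, 0.79 for *Pax5*, 0.21 for *Ebf1*, 0.41 for *Ptprc*, -0.04 for *Cd74* and 0.04 for *Pou2af1*, with adjusted p of 0.0746 to 0.897.

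Markers of other cell types were at low levels. The summed level of 10 T-cell markers was 0.695 to 1.30 CPM in E6.2 and 2.12 to 2.95 CPM in E7.1, of which *Cd2* was called (0.394, 0.363 and 0.632 CPM against 1.82, 1.69 and 2.48 CPM, log2 fold change 2.09, adjusted p = 0.00406). Of the 10 myeloid markers 5 could be tested and 0 were called by edgeR or by DESeq2 (1 at an unadjusted p under 0.05), with summed levels of 6.26 to 13.6 CPM and 11.2 to 18.5 CPM. The erythroid markers summed to 64.6 to 119 CPM in E6.2 and 2.54 to 2.89 CPM in E7.1, with *Slc4a1* as the only called member of 4 tested. Stromal and epithelial markers stayed at 1.88 to 4.12 CPM. There *Dcn*, the matrix proteoglycan decorin, was at 0 in E6.2 and at most 0.562 CPM in E7.1 (at least 4.09-fold higher, adjusted p = 0.00245), and *Pdgfrb* had 59 counts in E6.2 against 3 (ratio 23.6, interval 7.69 to 118, adjusted p = 0.00179). The defining T-cell genes Cd3e and Cd3d and the myeloid gene Lyz2 had 0 counts in all 6 libraries. The part of these low transcripts in other results was not tested.

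Every list count stands against the shares over all tested genes, 8.22% called higher and 8.65% called lower. A list near both shares is not set apart by its counts. Of the lists of pathways and functions, cholesterol synthesis and uptake had the highest median. Cells make cholesterol from acetyl-CoA through the mevalonate pathway, and the transcription factor Srebf2, when sterol is low, binds sterol elements beside CCAAT boxes that NF-Y occupies. Of the 23 tested members reported here 15 (65.2%) were called higher and 1 lower, with a median log2 fold change of 1.18, against 8.22% and -0.07 over all genes. *Nsdhl*, which removes the 4-methyl groups of sterols, was at 33.0, 38.5 and 42.5 CPM in E6.2 and at 176, 116 and 133 CPM in E7.1 (1.90, SE 0.39, adjusted p = 0.00861). *Sc5d* and *Hsd17b7*, late enzymes of the pathway, were called with log2 fold changes of 0.81 and 1.88 (adjusted p = 0.00979 and 0.0104). These 2 calls were lost without E7.1 replicate 1, at 0.0523 and 0.0544.

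The genes *Hmgcs1* and *Msmo1*, named here after their values were seen, were also called higher. *Hmgcs1*, the synthase that starts the pathway, was at 121, 152 and 168 CPM in E6.2 and at 684, 447 and 526 CPM in E7.1 (1.91, adjusted p = 0.015, and 0.0639 without E7.1 replicate 1). The sterol oxidase *Msmo1* had a log2 fold change of 1.04 (adjusted p = 0.0289) and was not called in 4 of the 6 fits without 1 library. *Abcg1*, which exports cholesterol, was lower (18.8, 20.3 and 9.29 CPM against 4.10, 2.48 and 3.16 CPM, log2 fold change -2.31, adjusted p = 0.0184), but was not called without 1 library of E7.1 (up to 0.0618). The number of members called higher ranged from 1 without E7.1 replicate 1, where *Nsdhl* remained, to 19 without E6.2 replicate 3, while the median stayed between 1.03 and 1.35.

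The summed level of this list varied between passages of other lines. It was 1671, 1651 and 1795 CPM in E6.2 and 4112, 3138 and 3482 CPM in E7.1, without overlap. In parental cells it was 3129, 1572 and 1527 CPM, so parental replicate 1 stood close to E7.1 while the other parental libraries stood with E6.2. E6.1 held 1684, 2486 and 2001 CPM and E7.2 held 2963, 2922 and 1762 CPM.

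Promoter windows of 4 of these genes are shown because the list moved together and shares a sequence feature that the comparison did not use. They are 100-base stretches from the 250 bases before RefSeq transcription starts on GRCm38.p6, read 5′ to 3′ on the strand of the gene. Capitals mark CCAAT or its reverse complement ATTGG and, in *Hmgcs1*, the sterol element TCACCCCAC. Each window was chosen as the stretch that held the most such matches, so it is not a typical stretch. The windows of *Cyp51* and *Lss*, which held 1 match each, are not shown. Neither of these genes was called without E7.1 replicate 1.
*Hmgcs1* (chr13:119690214-119690313, plus strand): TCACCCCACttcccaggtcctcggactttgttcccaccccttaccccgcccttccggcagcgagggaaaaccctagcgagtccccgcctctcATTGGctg
*Nsdhl* (chrX:72918412-72918511, plus strand): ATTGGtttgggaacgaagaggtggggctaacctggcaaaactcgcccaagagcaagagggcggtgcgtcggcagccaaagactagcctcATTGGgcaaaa
*Hsd17b7* (chr1:169969206-169969305, minus strand): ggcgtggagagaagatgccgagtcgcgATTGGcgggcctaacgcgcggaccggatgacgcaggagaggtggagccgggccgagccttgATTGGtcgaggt
*Msmo1* (chr8:64733579-64733678, minus strand): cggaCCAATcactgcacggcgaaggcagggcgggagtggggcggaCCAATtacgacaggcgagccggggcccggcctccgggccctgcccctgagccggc
CCAAT, searched on both strands in the 250 bases before any listed start, was present in 16 of the 18 list members with a promoter entry (88.9%) and in 10 of the 11 called higher. It was present for 37.5% of the 27025 genes with an entry and for 41.1% of the 9488 tested genes with one. For genes called higher the share was 42.5%, and for those called lower it was 39.3%. List members that were not called, such as *Mvk*, *Pmvk*, *Mvd*, *Idi1*, *Tm7sf2* and *Srebf2*, also held CCAAT, while *Abca1* did not. The motif thus did not separate called members from the others. The sterol element TCACCCCAC, on both strands, occurred for 0.555% of all genes and for 1 list member, *Hmgcs1*. It occurred for 0.653% of tested genes, 0.575% of those called higher and 1.28% of those called lower. A forkhead motif, TGTTTAC on both strands, occurred for 3.54% of all genes, 2.60% of tested genes, 2.99% of those called higher and 3.26% of those called lower. A match of letters is a description of the window and not a bound site.

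Fatty acid synthesis showed a similar shift. Of 11 tested members 5 were called higher and 0 lower, with a median of 0.83. *Scd1*, the desaturase that makes oleic acid, was at 59.8, 71.9 and 51.7 CPM in E6.2 and at 569, 357 and 422 CPM in E7.1 (2.88, SE 0.56, adjusted p = 0.00734). Parental cells held 368, 103 and 96.1 CPM, again with replicate 1 nearest to E7.1. Its relative *Scd2* (2.01, adjusted p = 0.00979), the elongase *Elovl6* (1.81, adjusted p = 0.00496) and *Acly*, which makes cytosolic acetyl-CoA (1.11, adjusted p = 0.00734), were higher as well. The count was 4 without E7.1 replicate 1 and 8 without E6.2 replicate 3. Of 15 fatty acid oxidation genes 2 (13.3%, against 8.22% over all genes) were called higher, *Acadm* (0.38, adjusted p = 0.0483) and *Hadh* (0.58, adjusted p = 0.0496). *Acadm* was called in none and *Hadh* in 1 of the 6 fits without 1 library, and without E6.2 replicate 3 the number of genes was 4.

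Glycolysis had 7 of 24 members higher and 1 lower, with a median of 0.42 (0.69 without E6.2 replicate 3). *Ldha*, which turns pyruvate into lactate, was at 181, 222 and 291 CPM in E6.2 and at 1115, 567 and 706 CPM in E7.1 (1.78, SE 0.34, adjusted p = 0.00653), and parental cells held 216 to 392 CPM. *Pfkl*, a phosphofructokinase subunit (1.72), *Tpi1*, triosephosphate isomerase (1.51), and *Eno1*, enolase (0.87), were higher with adjusted p of 0.00537 to 0.0117. The lactate exporter *Slc16a3* was lower (-1.63, adjusted p = 0.0404), a call lost in 3 of the 6 fits without 1 library. The number called higher was 4 without E7.1 replicate 1 and 12 without E6.2 replicate 3. In the pentose phosphate pathway, which supplies NADPH, *G6pdx* (1.36, adjusted p = 0.00559) and *Pgd* (1.31, adjusted p = 0.00692) were higher and *Rpia*, at the ribose branch, was lower (-0.82, adjusted p = 0.0225, not called in 5 of the 6 fits without 1 library). Of 7 genes 2 were thus higher, and 4 without E6.2 replicate 3.

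In the tricarboxylic acid cycle 6 of 18 members were higher and 0 lower (median 0.37, and 0.59 without E6.2 replicate 3, with 3 higher without E7.1 replicate 1 and 13 without E6.2 replicate 3). They included *Sdha*, of succinate dehydrogenase (0.69, adjusted p = 0.00676), the fumarase *Fh1* (0.90, adjusted p = 0.00821) and *Suclg1*, of succinyl-CoA ligase (0.64, adjusted p = 0.00761). Of 77 nuclear genes of the respiratory chain and ATP synthase 16 were higher and 1 lower (median 0.27, with 0.18 without E6.2 replicate 1 and 0.42 without E6.2 replicate 3), from 2 without E7.1 replicate 1 to 34 without E6.2 replicate 3. *Ndufa1*, of complex I, was at 23.3, 24.9 and 31.4 CPM in E6.2 and at 44.2, 49.0 and 48.7 CPM in E7.1 (0.83, adjusted p = 0.00626). Of the 13 mitochondrially encoded transcripts 0 were called by edgeR or by DESeq2 (0 at an unadjusted p under 0.05, median 0.13, with -0.25 and 0.45 without E7.1 replicates 1 and 2, and 0.36, 0.35 and -0.21 without E6.2 replicates 1, 2 and 3). *mt-Co1* ranged from 4421 to 7789 CPM in E7.1 and from 10125 to 16352 CPM in E6.2 (-1.0, adjusted p = 0.241). Hypoxia-responsive genes had 1 of 15 higher and 3 lower (median -0.06), and 4 higher without E6.2 replicate 3. Among them *Ndrg1*, a stress-responsive gene, was at 16.5, 20.4 and 13 CPM against 2.28, 5.13 and 6.17 CPM (-1.88, adjusted p = 0.00522).

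Glutathione, iron and oxidative stress genes had 8 of 16 higher and 0 lower (median 0.60, and 0.33 without E7.1 replicate 1), with 1 left without E7.1 replicate 1, *Slc7a11*. *Gsr*, glutathione reductase (1.06), *Nqo1*, a quinone reductase (2.11), and *Tfrc*, the transferrin receptor (1.6), had adjusted p of 0.00953 to 0.0185, and of 0.0527 to 0.0761 without that library. *Tfrc* was at 1384 CPM in E7.1 replicate 1 and at 351 and 440 CPM in the other E7.1 libraries, against 189 to 291 CPM in E6.2. Targets of Atf4, the factor of the amino acid stress response, had 1 of 23 higher, again *Slc7a11*, and 4 lower (median -0.37). In E7.1 replicate 1 the list stood at -0.95 relative to the parental mean, against 0.01 and -0.07 in the other E7.1 libraries, and without that library the median was -0.14 (-0.19 without E6.2 replicate 3). *Trib3*, a pseudokinase induced by Atf4, was at 137, 185 and 116 CPM in E6.2 and at 13, 50.9 and 45.8 CPM in E7.1 (-2.0, SE 0.44, adjusted p = 0.0126). The number lower was 2 without E7.1 replicate 1 and 6 without E6.2 replicate 3.

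In the endoplasmic reticulum list 5 of 19 were higher and 2 lower (median 0.53), but the median was 0.08 without E7.1 replicate 1, 0.34 without E6.2 replicate 1 and 0.83 without E6.2 replicate 3. In E7.1 replicate 1 the list stood 1.22 log2 units over the parental mean, against 0.33 and 0.32 in the other E7.1 libraries. *Sdf2l1*, a chaperone cofactor, was at 8.90, 14.7 and 17.8 CPM against 80.1, 40.3 and 42.0 CPM (1.97, adjusted p = 0.00894), and *Edem1*, which marks misfolded glycoproteins for disposal, was higher by 1.18 (adjusted p = 0.00775). The stress sensor *Ern1* was lower (-1.86, adjusted p = 0.016), though 3 of the 6 fits without 1 library did not call it. The number higher was 2 without either E6.2 replicate 1, E6.2 replicate 2 or E7.1 replicate 1, and 9 without E6.2 replicate 3.

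The signalling machinery of the B-cell receptor had 10 of 35 members higher and 1 lower (median 0.25). The higher members included both transmitters and inhibitors of the signal. *Ptpn6*, the phosphatase SHP-1, was at 55.9, 56.2 and 61 CPM in E6.2 and at 198, 161 and 137 CPM in E7.1 (1.52, SE 0.27, adjusted p = 0.00478), with 118, 52.4 and 58.2 CPM in parental cells. *Inpp5d*, the lipid phosphatase SHIP (1.19, adjusted p = 0.00335), and *Fcgr2b*, the inhibitory Fc receptor (8.82, 8.5 and 8.18 CPM against 24.3, 21.6 and 18.6 CPM, log2 fold change 1.34, adjusted p = 0.00345), were higher, and so was *Pik3r1*, a regulatory subunit of phosphoinositide kinase (0.71, adjusted p = 0.0086). Beside *Cd79a*, the transmitters *Syk* (0.51), *Btk* (0.67), *Plcg2* (1.04), *Vav1* (0.49) and *Pik3ap1* (1.08), named here after their values were seen, were higher with adjusted p of 0.0145 to 0.0307. None of these 5 was called without E7.1 replicate 1 (0.0623 to 0.136). The lower member was *Blnk*. Without E7.1 replicate 1 the number higher was 4, and without E6.2 replicate 3 it was 15.

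Of the B-lineage transcription factors 7 of 26 were higher and 1 lower (median 0.45). *Irf4*, which drives plasma cell and activated B-cell programmes, was at 16.4, 16.3 and 9.86 CPM in E6.2 and at 30.3, 42.8 and 31.8 CPM in E7.1 (1.30, SE 0.25, adjusted p = 0.00693), and parental cells held 37.4 to 48.8 CPM. *Pou2f2*, the octamer factor Oct-2, was at 19.2, 19.3 and 23.0 CPM against 54.4, 78.7 and 80.6 CPM (1.80, adjusted p = 0.00887). *Id2*, which blocks E proteins, was higher by 2.27 (adjusted p = 0.00602). *Prdm1*, the plasma cell regulator Blimp-1, was higher by 1.79 (adjusted p = 0.0203), and *Bach2*, its repressor, was lower by 1.40 (log2 fold change -1.40, adjusted p = 0.0226). *Prdm1* was not called in 2 and *Bach2* not in 5 of the 6 fits without 1 library, where the largest adjusted p of each was 0.0991. *Bcl6*, another repressor of *Prdm1*, was higher (0.77, adjusted p = 0.0326, not called in 4 of the 6 fits), as were *Id3* (2.13, adjusted p = 0.0304, not called in 3) and *Ikzf3* (0.44, adjusted p = 0.0484, not called in 5). *Xbp1*, a factor of plasma cell secretion, was at -0.30 (adjusted p = 0.619). These 4 genes are named after their values were seen. The number higher was 3 without E7.1 replicate 1, and the median was 0.26 without E6.2 replicate 3. Of the 24 tested immunoglobulin genes 6 were lower and 0 higher (median -0.39, with -0.25 without E6.2 replicate 1 and -0.14 without E6.2 replicate 3), with 2 lower without E7.1 replicate 1 and 4 called higher without E6.2 replicate 3. *Igkj3* and *Igkj5*, joining segments of the kappa locus, were lower by 1.44 and 1.58 (log2 fold changes -1.44 and -1.58, adjusted p = 0.00582 and 0.0123). Segments this short share reads with rearranged neighbours, so their counts are uncertain.

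Antigen presentation genes differed little as a group between the clones. Both clones were edited in *Foxp1*, so their comparison does not test how Foxp1 acts on this process. Against parental cells the median of the class II list was 0.06 in E7.1 and 0.05 in E6.2. The paper reports more MHC class II protein on the surface of its clones and proposes control after transcription. Surface protein was not measured here. Of 18 MHC class II genes 1 was higher and 2 lower (5.56% and 11.1%, against 8.22% and 8.65% over all genes), with a median of 0.02. *H2-DMb2*, a chain of the peptide-loading molecule H2-M, was at 25.4, 36.0 and 44.4 CPM in E6.2 and at 85.3, 75.1 and 63.5 CPM in E7.1 (1.08, SE 0.20, adjusted p = 0.00585). *H2-Ob*, which restrains H2-M, was lower (-0.89, adjusted p = 0.0289) and *March8*, a ubiquitin ligase that removes class II from the surface, was lower (-0.43, adjusted p = 0.0449). Neither of the lower calls was kept in every fit without 1 library, and *H2-DMb2* shares reads with its near copy, the other DM beta gene. Without E6.2 replicate 3 there were 5 higher. In the class I list 3 of 17 were higher and 1 lower (median 0.22, with 0.11 without E7.1 replicate 2, 0.1 without E6.2 replicate 2 and 0.39 without E6.2 replicate 3). The immunoproteasome subunits *Psmb10* (0.73, adjusted p = 0.0203) and *Psmb9* (0.79, adjusted p = 0.03) were among them, and were not called in 2 and 5 of the 6 fits. The number higher was 0 without E6.2 replicate 1 or E7.1 replicate 1 and 7 without E6.2 replicate 3.

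Of the costimulatory and checkpoint ligands 3 of 17 were higher and 2 lower (median 0.11, with 0.2 without E7.1 replicate 1 and 0.01, 0.45 and 0.04 without E6.2 replicates 1, 2 and 3), and without any 1 library of E7.1 none was called lower. *Cd200*, a ligand that restrains myeloid cells, was at 59.8, 80.1 and 79.3 CPM in E6.2 and at 154, 165 and 159 CPM in E7.1 (1.13, SE 0.14, adjusted p = 0.000298), and parental cells held 163 to 206 CPM. *Tnfsf9*, the ligand of the T-cell receptor 4-1BB, was at 0.512, 0.514 and 1.29 CPM against 7.98, 4.80 and 3.70 CPM (2.81, adjusted p = 0.00295). *Cd274*, the checkpoint ligand PD-L1, was at 148, 137 and 315 CPM in E6.2 and at 80.6, 63.9 and 74.7 CPM in E7.1 (-1.45, adjusted p = 0.0164), but 3 of the 6 fits without 1 library did not call it, with adjusted p up to 0.0618. Of 23 cytokine receptor and JAK-STAT genes 1 was higher, *Il2rg*, and 1 was lower, *Il10rb*, a chain of the interleukin-10 receptor (-0.91, adjusted p = 0.0268, not called in 3 of the 6 fits), with a median of -0.02 and 3 higher without E6.2 replicate 3.

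Of the NF-kB and TNF family genes 3 of 23 were higher and 4 lower (median -0.11, with -0.19 without E7.1 replicate 1, -0.28 without E7.1 replicate 2 and 0.01 without E6.2 replicate 3). The receptors for the survival factor BAFF stood on the higher side. *Tnfrsf13c*, the BAFF receptor, was at 12, 13.7 and 12.9 CPM in E6.2 and at 55.2, 37.5 and 34.1 CPM in E7.1 (1.72, SE 0.20, adjusted p = 0.000271), and *Tnfrsf13b*, which encodes TACI, was at 70.5, 107 and 37.0 CPM against 186, 178 and 179 CPM (1.34, adjusted p = 0.0117). The subunits *Relb* (-1.44, adjusted p = 0.00969) and *Rela* (-0.69, adjusted p = 0.0162) stood on the lower side, where without E7.1 replicate 1 no gene was called and the adjusted p was 0.0562 and 0.0624 for these subunits. *Rela* was not called without E7.1 replicate 2 or 3 either. Interferon-stimulated genes had 4 of 25 higher and 2 lower (median 0.20, with 0.11 without E7.1 replicate 2 or E6.2 replicate 3, 0.35 without E7.1 replicate 3 and 0.39 without E6.2 replicate 1), with 1 higher without E7.1 replicate 1 or 3. *Gbp3*, a guanylate-binding protein, was at 3.70, 4.90 and 1.98 CPM against 15.1, 11.1 and 10.5 CPM (1.80, adjusted p = 0.0226, not called in 2 of the 6 fits).

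Homing and adhesion receptors had 2 of 18 higher and 2 lower (median -0.05). That is 11.1% each way, near the 8.22% and 8.65% over all genes. *Itgal*, the integrin chain of LFA-1, was at 65.4, 56.5 and 37.6 CPM in E6.2 and at 132, 122 and 120 CPM in E7.1 (1.23, SE 0.17, adjusted p = 0.000783). *Cxcr5*, which guides B cells into follicles, was at 9.72, 13.1 and 22.3 CPM against 48.3, 43.7 and 35 CPM (1.49, adjusted p = 0.00858). *S1pr1*, which guides them out into lymph, was at 38.5, 51.0 and 89.0 CPM against 12.5, 13.8 and 14 CPM (-2.15, SE 0.42, adjusted p = 0.00768). *Cxcr4* was lower by 1.56 (log2 fold change -1.56, adjusted p = 0.01), and at 0.0583 without E7.1 replicate 1, when only 1 receptor was called lower. The actin cytoskeleton list had 13 of 37 higher and 0 lower (median 0.47), from 7 without E7.1 replicate 1 to 24 without E6.2 replicate 3. Beside *Vim* they included the formin *Fmnl1* (1.38, adjusted p = 0.00179), the membrane linker *Ezr* (0.99, adjusted p = 0.00403) and the cortactin relative *Hcls1* (0.78, adjusted p = 0.00564).

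**Figure D3:**
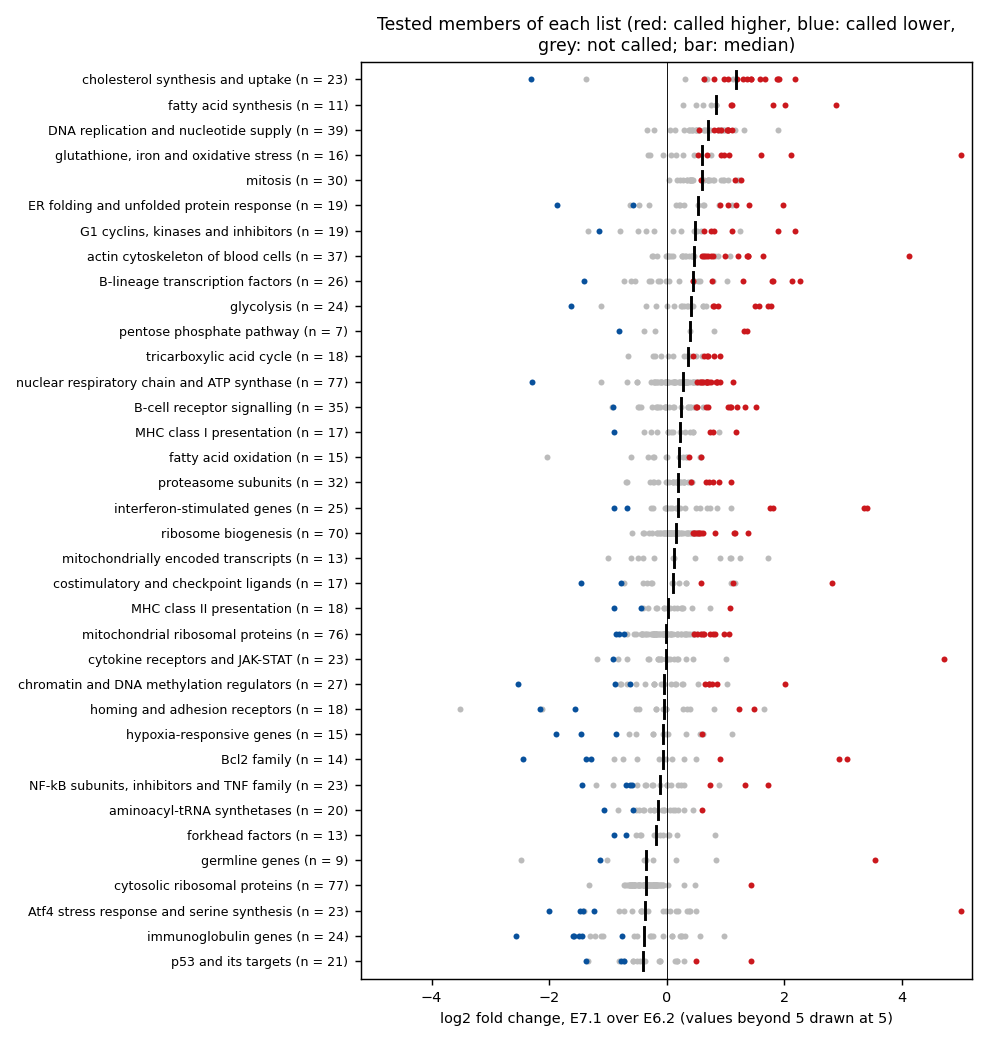
Log2 fold change of E7.1 over E6.2 for each tested member of 36 gene lists (1 row per list, n tested beside its name, values beyond 5 drawn at 5), with members called higher in red, called lower in blue, others in grey and the median as a black bar. Cholesterol synthesis has the highest median (1.18) and p53 targets the lowest (-0.41).

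Genes of proliferation were shifted upward as groups. DNA replication had a median of 0.70 with 8 of 39 higher and 0 lower, and mitosis a median of 0.60 with 3 of 30 higher and 0 lower. Both counts were unstable, at 0 to 6 for replication and 0 to 5 for mitosis when 1 library was left out. Among these fits both lists had 0 without E7.1 replicate 1, and mitosis had calls only without E6.2 replicate 3. *Rpa1*, a single-strand DNA-binding subunit, was at 149, 198 and 176 CPM against 442, 346 and 341 CPM (1.11, adjusted p = 0.0162, and 0.0722 without E7.1 replicate 1). *Ccnb1*, the mitotic cyclin B, was at 143, 193 and 166 CPM against 408, 349 and 376 CPM (1.17, adjusted p = 0.0435) and was called in no fit that left out a library. Of the G1 genes 6 of 19 were higher and 1 lower (median 0.48, and 0.28 without E6.2 replicate 3). *Ccnd3*, the D-type cyclin of mature B cells, was at 36.0, 36.8 and 45.0 CPM in E6.2 and at 162, 143 and 136 CPM in E7.1 (1.90, SE 0.36, adjusted p = 0.00641). *Ccne1*, cyclin E, was at 12.1, 11 and 14.7 CPM against 79.1, 47.0 and 47.2 CPM (2.19, SE 0.44, adjusted p = 0.00825). The inhibitor *Cdkn1b* was lower (-1.15, adjusted p = 0.0097, and 0.057 without E7.1 replicate 1), and without that library 2 G1 genes were higher.

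In ribosome biogenesis 12 of 70 were higher and 0 lower (median 0.16, with 0.05 without E7.1 replicate 1, 0.07 without E6.2 replicate 1 and 0.34 without E6.2 replicate 3), from 3 without E7.1 replicate 1 to 27 without E6.2 replicate 3. *Nolc1*, a nucleolar chaperone, was at 70.1, 69.6 and 101 CPM against 253, 193 and 184 CPM (1.39, SE 0.16, adjusted p = 0.000251), and *Tbl3* (1.15) and *Bop1* (1.16), of ribosomal subunit assembly, had adjusted p of 0.00234 and 0.00568. Cytosolic ribosomal proteins had 1 of 77 higher, *Rps2* (1.43, adjusted p = 0.00918), and 0 lower. Their median of -0.35 became -0.2 without E7.1 replicate 1, -0.55 without E6.2 replicate 1 and 0.14 without E6.2 replicate 3, and in E6.2 replicate 3 this list stood 0.96 log2 units over the parental mean. *Rps2* has many processed copies, so its count is uncertain. Of 76 mitochondrial ribosomal proteins 10 were higher and 3 lower (median -0.01), with 1 higher without E7.1 replicate 1 and 19 without E6.2 replicate 3, and *Mrps25* was higher by 1.06 (adjusted p = 0.0056). Aminoacyl-tRNA synthetases had 1 of 20 higher and 2 lower (median -0.15, with -0.06, -0.07 and -0.08 without E7.1 replicate 1, E6.2 replicate 2 and E6.2 replicate 3), and without E7.1 replicate 1 none was called. Proteasome subunits had 6 of 32 higher and 0 lower (median 0.20, and 0.11 and 0.32 without E6.2 replicates 1 and 3, with 2 without E7.1 replicate 1 and 12 without E6.2 replicate 3), among them *Psmd12* (0.89, adjusted p = 0.00641) and *Psmd2* (1.09, adjusted p = 0.00843).

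Genes of cell death moved both ways. Of 14 Bcl2 family genes 3 were higher and 3 lower (median -0.07), and without E7.1 replicate 1 there was 1 in each direction. *Bcl2l1*, which encodes the survival protein Bcl-xL, was at 718, 794 and 534 CPM in E6.2 and at 284, 274 and 286 CPM in E7.1 (-1.28, SE 0.25, adjusted p = 0.00761), with 262, 593 and 487 CPM in parental cells. *Bid*, which promotes death, was at 51.5, 49.3 and 42.3 CPM against 100, 84.6 and 82.0 CPM (0.90, SE 0.15, adjusted p = 0.00295). For p53 and its targets 2 of 21 were higher and 3 lower (median -0.41, and -0.2 without E6.2 replicate 3). These are 9.52% and 14.3%, against 8.22% and 8.65% over all genes. *Bbc3*, which encodes the death inducer Puma, was lower (-1.37, adjusted p = 0.0332, not called in 4 of the 6 fits without 1 library). Without E7.1 replicate 1 no p53 target was called by edgeR. Chromatin and DNA methylation regulators had 6 of 27 higher and 3 lower (median -0.04), and without E7.1 replicate 1 none in either direction. *Hdac1*, a histone deacetylase, was higher by 0.72 (adjusted p = 0.0133, and 0.0615 without that library). Of 13 forkhead genes 0 were higher and 2 lower, *Foxp1* and *Foxn3* (-0.69, adjusted p = 0.0187, not called in 2 of the 6 fits), with a median of -0.19 (-0.11 without E6.2 replicate 3). Of 9 germline genes tested *Rhox5* was higher and *Ddx4*, an RNA helicase, lower (-1.13, adjusted p = 0.0257, not called in 4 of the 6 fits), with a median of -0.35 (-0.03 without E7.1 replicate 3, -0.02 without E6.2 replicate 1 and -0.59 without E6.2 replicate 2).

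**Figure D4:**
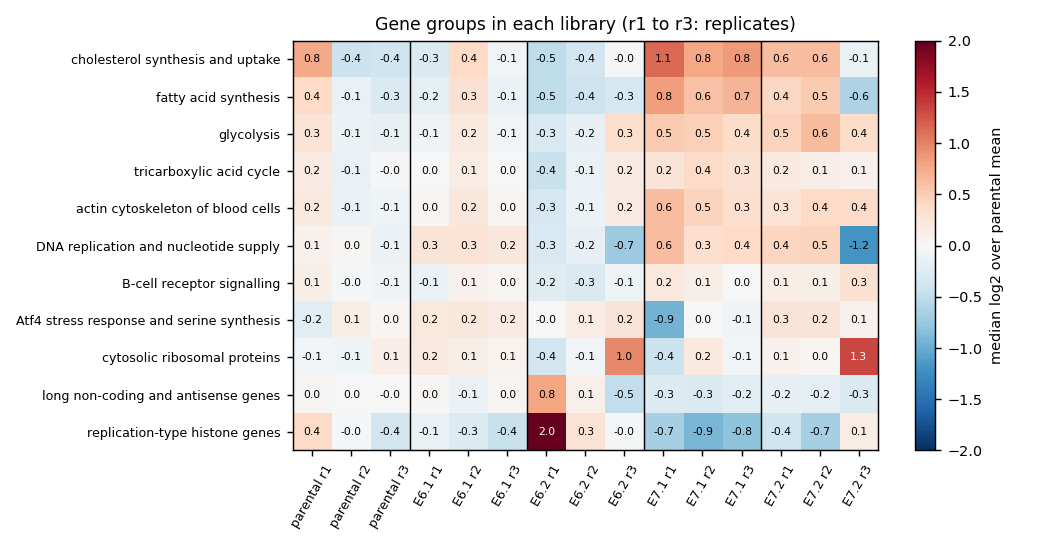
Median log2 level of 9 gene lists and 2 gene classes in each of the 15 libraries, relative to the parental mean (colour scale from -2 to 2, value written in each cell). Cholesterol and fatty acid synthesis stand highest in E7.1 and are raised in parental replicate 1, and histone and non-coding genes stand highest in E6.2 replicate 1.

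Long non-coding and antisense genes and histone genes leaned lower in E7.1. Processed pseudogenes had 51 of 1128 higher (4.52%) and 25 lower (2.22%), with a median of -0.1, and 0.2 without E6.2 replicate 3. The snoRNA genes had 2 of 108 higher and 3 lower, with a median of -0.53. Of 996 long non-coding and antisense genes 17 were higher and 123 lower, with a median of -0.67. This moved with single E6.2 libraries. In E6.2 the median level of the class over the parental mean was 0.79, 0.10 and -0.49 log2 units, and in E7.1 it was -0.28, -0.29 and -0.22. Without E6.2 replicate 1 the median difference was -0.14 with 21 higher and 34 lower, and without E6.2 replicate 3 there were 301 lower. Histone genes of the replication type, whose messages lack a poly(A) tail, had 0 of 17 higher and 6 lower (median -2.08). Without E6.2 replicate 1, where the class stood 2.05 log2 units over the parental mean against 0.29 and -0.02 in the other E6.2 libraries, 3 were lower and the median was -1.22. *Hist1h1c*, a linker histone, was at 11.6, 3.99 and 9.47 CPM against 1.37, 0.689 and 0.537 CPM (-3.26, adjusted p = 0.00979). *Hist1h1e* was at 21.8 CPM in E6.2 replicate 1 and at 0.575 and 0.271 CPM in the others, and its adjusted p of 0.0259 rose to 0.34 without that library. The same library set the calls of *Gm42418* and *Lars2*, named here after their values were seen, which lie in or beside ribosomal RNA sequence. *Gm42418* was at 107252, 3033 and 1699 CPM in E6.2 against 607 to 1736 CPM in E7.1, and the adjusted p rose from 0.0328 to 0.536 without that library. *Lars2* was at 23180, 2945 and 2253 CPM against 867 to 1895 CPM, and its adjusted p rose from 0.0281 to 0.254.

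Some called genes lay side by side on a chromosome. A run was taken as at least 4 called genes in one direction with at most 2 tested but uncalled genes between one and the next, and 34 runs held 149 genes (6.35% of those called), 15 runs higher and 19 lower. Of the 34 runs, 25 held only the minimum of 4 genes. How many runs would arise from the share of called genes alone was not tested, so the runs are a description only. The longest run had 8 genes on chr10:75060896-75949657, all higher with a median of 1.76, from *Bcr* to *Vpreb3*. It held *Gstt3*, a glutathione transferase, at 32.3, 38.3 and 29.2 CPM in E6.2 and 118, 117 and 95.8 CPM in E7.1 (1.73, SE 0.21, adjusted p = 0.000359). *Bcr*, a kinase and regulator of small GTPases (0.65, adjusted p = 0.0441), was called in only 1 of the 6 fits without 1 library, and *Vpreb3*, an assembly factor of the B-cell receptor (2.85, adjusted p = 0.0142), was not called without 1 library (adjusted p = 0.0562). The neighbouring Gstt genes are paralogs, so reads they share were left out of their counts.

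A run of 5 genes on chr19:45818144-46085528 had no uncalled gene between them, from *Armh3* (1.22, adjusted p = 0.000706) to *Nolc1*, with a median of 1.22. On chr1:171682009-172028444 4 genes were higher with a median of 1.02, from *Cd48*, a SLAM family ligand on lymphocytes (0.58, adjusted p = 0.0182, not called in 2 of the 6 fits), to *Vangl2*, of planar cell polarity (1.30, adjusted p = 0.00686). On chr19:11404770-11531256 a run of Ms4a genes, from *Ms4a4c* to *Ms4a6b*, was lower with a median of -4.55. *Ms4a6b* was at 0.984, 1.21 and 2.89 CPM against 0.0803, 0.128 and 0.0895 CPM (-4.04, adjusted p = 0.00843), and *Ms4a4c* rested on E6.2 replicate 3 (1.06, 1.63 and 18 CPM, adjusted p = 0.0327 and up to 0.144 without 1 library). On chr18 *Gypc*, a membrane glycoprotein, was at 8.90, 10.8 and 8.54 CPM against 26.6, 24.3 and 21.7 CPM (1.36, SE 0.15, adjusted p = 0.000147) within a run of 5 higher genes. Over whole chromosomes the median log2 fold change was between -0.13 and 0.11.

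The other exon 7 and exon 6 clones, E7.2 and E6.1, gave a second comparison that shares no library with this one. It called 49 genes (0.352%), 35 higher and 14 lower. Of the genes called higher in E7.1, 860 (75.2%) had the same sign there, with a median log2 fold change of 0.171 against 0.873 in E7.1 and E6.2. Of those lower, 872 (72.5%) had the same sign, with a median of -0.191 against -1.09. The same sign was found for 58.4% of all genes tested. A test of the difference between the clone pairs called 142 genes (1.02%).

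Only 14 genes were called in both pairs, and they are named here after their values were seen. In the same direction were *Foxp1* (-0.90 and -1.27), *Adgrl2* and 6 others. The fatty acid and lipoprotein scavenger receptor *Cd36* was at 6.65, 10.2 and 4.87 CPM in E6.2 and at 54.8, 25.2 and 38.5 CPM in E7.1 (2.45, adjusted p = 0.000975), and at 12.8, 15.6 and 12.9 CPM in E6.1 and 73.1, 65.8 and 42.1 CPM in E7.2 (2.14, adjusted p = 0.00786). *Tln2*, the integrin-linking protein talin, was higher by 1.81 and 1.24 (adjusted p = 0.000877 and 0.0463). The septin *Sept8* was higher by 1.51 and 2.90, *Gpd1l*, a glycerol phosphate dehydrogenase-like gene, by 0.72 and 1.17, and *AB124611* by 2.45 and 4.76, the latter not called between E7.1 and E6.2 in 2 of the 6 fits without 1 library. For *Cd36*, *Tln2* and *Sept8* the libraries of both exon 6 clones were all below the parental ranges of 24.0 to 43.6, 34.4 to 56.3 and 6.23 to 10.4 CPM, and those of the exon 7 clones were within or above them. *Aldoart2*, an aldolase-like retrogene that can share reads with its parent gene, was at no more than 0.0601 CPM in the exon 6 clones and at 0.187 to 0.843 CPM in the exon 7 clones.

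The other 6 were called in opposite directions. *Ptpn14*, a tyrosine phosphatase, was at 18.5, 17.7 and 19.4 CPM in E6.2 and 1.95, 5.34 and 5.04 CPM in E7.1, but at 4.06, 5.72 and 4.63 CPM in E6.1 and 22.3, 29.6 and 29.3 CPM in E7.2 (-2.17 and 2.49). *Armcx2* was at 20.2, 24.9 and 16.3 CPM in E6.2 and 6.45, 8.38 and 7.87 CPM in E7.1 (-1.43, adjusted p = 0.00179), while E6.1 held no more than 0.0327 CPM and E7.2 held 12.4 to 14.3 CPM. *Dusp9*, a MAP kinase phosphatase (2.67 and -3.88), *A630095E13Rik* (2.04 and -3.27), the keratin *Krt222* (-1.25 and 3.89) and the transcription factor *Ubp1* (-0.48 and 0.79) completed the set. In E7.1 against E6.2 *Krt222* was called in 1 and *Ubp1* in none of the 6 fits without 1 library. For these 6 genes the exon 7 clone was higher in one pair and lower in the other.

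**Figure D5:**
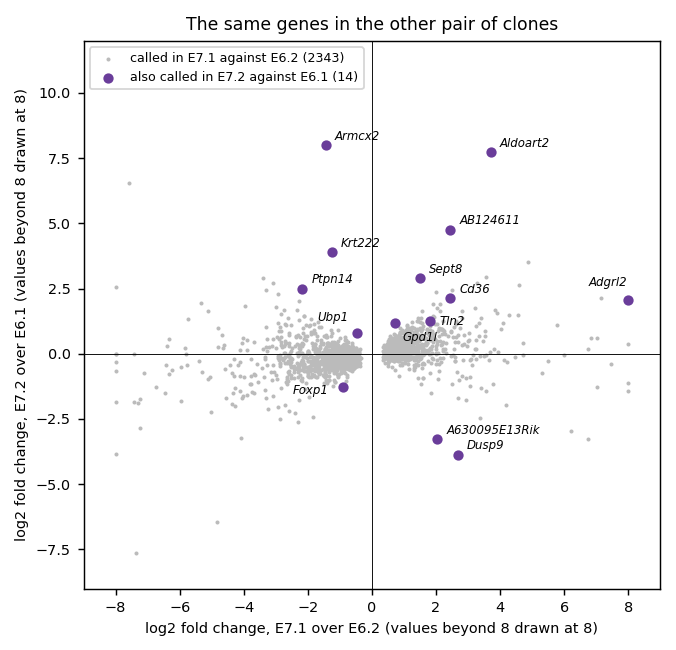
Log2 fold change of E7.2 over E6.1 (vertical axis) against E7.1 over E6.2 (horizontal axis) for 2343 of the 2346 genes called in E7.1 against E6.2, values beyond 8 drawn at 8 on both axes. The 14 genes called in both pairs are named, and 6 of them lie in the quadrants of opposite sign.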

How the data were processed

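Reads from 15 libraries (5 lines, 3 each) had been aligned to mm10 and counted per gene by the authors with HISAT, SAMtools and featureCounts, per the submitters' processing notes. The deposited values are raw gene counts, unstranded, with read pairs that map to several places or overlap several genes left out, which lowers counts of overlapping genes and paralogs. Of the features, 92 spike-in sequences were at 0 and were dropped. Counts were filtered with filterByExpr, scaled by TMM and fitted in 1 model over all 15 libraries with edgeR 4.0.16 (quasi-likelihood test, R 4.3.3, limma 3.58.1). The fit was also run on simulated counts in which each gene varied equally in all lines. Since E6.2 varied more than E7.1 in the data, that simulation cannot show how sound the calls of this comparison are. DESeq2 1.42.0 served as an alternative. Genes were called at an adjusted p under 0.05, two-sided. A floor of 3 counts equalled 0.0751 to 0.118 CPM per library, and exact 95% intervals and floors cover counting error only. With 3 libraries per clone, an exact permutation test of 1 gene cannot go below p = 0.1.

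Named genes were *Foxp1*, the B-cell markers, the 12 called genes per direction with the smallest p and the 12 with the largest fold change (without overlap between libraries, the latter with at least 1 CPM in the higher clone), up to 4 called genes per list and direction, and genes of the runs described. The clone pair, the gene lists and the named genes were chosen with earlier results of these data known. Some genes and gene sets are not reported here. Promoter sequences came from RefSeq (GRCm38.p6).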

Additional observations from a re-analysis of the deposited data

Results flagged for a closer look

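The difference between E7.1 and E6.2 was set against the difference between E7.2 and E6.1 by a test of the clone pairs in the same edgeR fit. Each gene below except *Foxp1* had an adjusted p under the threshold in that test, and all were named with the first difference known. The test uses the same E7.1 and E6.2 libraries by which the pair was chosen and most of these genes were picked. A difference from the other pair was thus favoured in advance, and all adjusted p-values in this section are a description only. Among genes higher in E7.1 with little difference in the other pair, the value was 1.17e-05 for *Il2rg* (log2 fold change 4.72 against -0.04), 4.21e-05 for *Sumf2* (5.99 against -0.06), 0.000541 for *Nlrc4* (4.45 against -0.11), 0.0018 for *Vim* (4.12 against -0.26), 0.000195 for *A230056P14Rik* and 0.00577 for *Nav2*. It was 0.000154 for *Rhox5* (3.54 against 0.70), 0.000398 for *Timd2* (3.45 against 0.48), 0.0344 for *Psrc1*, 0.0158 for *Rps6kl1*, 0.00322 for *Iqcg* and 0.00812 for *Kank4os*. Smaller differences gave 0.00902 for *Fcgr2b*, 0.00778 for *Itgal*, 0.0177 for *Fmnl1*, 0.0231 for *Nolc1*, 0.00809 for *Armh3* and 0.0018 for *Gypc*.

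Among genes at or near 0 in E6.2 the value was 1.17e-05 for *Atp6ap1l*, 0.000269 for *Adgrl2*, 0.000876 for *Slc7a11*, 0.000926 for *Slc24a3*, 0.0141 for *Bpifb4*, 0.000398 for *Pla2g5* and 0.0337 for *Dcn*. Among genes at or near 0 in E7.1 it was 2.03e-06 for *Fam49a*, 6.69e-05 for *Cfap126*, 0.00624 for *Gm15128*, 0.000668 for *Slc4a1*, 0.000876 for *Rhod* and 0.0481 for *Npr2*. Other genes lower in E7.1 gave 4.21e-05 for *Taf9b* (-6.38 against 0.29), 0.000349 for *Casc1* (-7.12 against -0.76), 0.000706 for *Rhou* (-4.30 against -0.86), 0.00372 for *Cryzl1* (-1.65 against 0.09), 0.00166 for *Zfp941*, 0.000876 for *Jhy*, 0.000876 for *9330111N05Rik*, 0.03 for *Fam78a* and 0.00936 for *Ndrg1* (-1.88 against 0.81).

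The genes called in opposite directions were chosen for that, so a difference between the pairs was bound to appear and their values are a description only, 1.37e-08 for *Armcx2*, 4.21e-05 for *Ptpn14*, 0.000394 for *Krt222*, 0.000439 for *A630095E13Rik*, 0.00114 for *Dusp9* and 0.00692 for *Ubp1*. For *Foxp1* the adjusted p of the difference between pairs was 0.473.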

How the results depend on the processing

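The 2346 calls became 813 (481 higher and 332 lower) in a fit of only the 6 libraries compared, 1138 with a minimum fold of 1 log2 unit, and 540 to 3683 when 1 library was left out. An alternative chosen after seeing the data, without replicates 1 and 3 of E6.2, left 376 (155 higher and 221 lower) and assumed that the lone library varied like the other lines. Leaving out ribosomal-like features, also added later, moved no count by more than 1.5 times. Without the filter on low counts the calls were 103 for E7.2 against E6.1 (49 as reported), 510 for E7.2 against E6.2 (312), 343 for E7.1 against parental (169) and 292 for the difference between clone pairs (142). The DESeq2 Wald test gave 236, 968, 1160 and 545 for the same comparisons, 1511 for E7.1 against E6.1 (450) and 398 for E6.2 against parental (163). The cause of these changes was not tested, except that fewer libraries entered some fits.

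Correlations of deviations between libraries of the same number were 0.113, -0.0863 and -0.0138, so the numbers were not taken as pairs. With a replicate block the calls were 2103 (1051 higher and 1052 lower), and 40, 416, 273, 163, 135 and 151 in the other comparisons in the order E7.2 against E6.1, E7.1 against E6.1, E7.2 against E6.2, both clones against parental (E7.1 first) and the difference between pairs.

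Of 161 called genes named in the text, 92 were not called without replicates 1 and 3 of E6.2, 54 without E7.1 replicate 1, 32 in the fit of 6 libraries and 0 by DESeq2, and 65 were called under every alternative. A gene without a result under an alternative, such as *Aldoart2* in the fit of 6 libraries, was not counted as lost there. The 65 may thus include genes that some alternative did not test. Values that changed sign belonged to genes that were not called. *Cd22* was at 0.44 without replicates 1 and 3 of E6.2, *Ebf1* ranged from -0.0 (without E6.2 replicate 3) to 0.43 when 1 library was left out, *Cd74* from -0.14 to 0.1 (0.02 without E7.1 replicate 3 and 0.1 without E6.2 replicate 3) and was at 0.18 without replicates 1 and 3 of E6.2, and *Pou2af1* from -0.07 (without E6.2 replicate 3) to 0.21, with -0.03 without E7.1 replicate 1 and -0.21 without replicates 1 and 3 of E6.2. *Xbp1* ranged from -0.5 to 0.22 (without E6.2 replicate 3) when 1 library was left out and was at 0.14 without replicates 1 and 3 of E6.2.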
